A study of Rattus norvegicus with 192 samples.

Results

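Livers of rats given vancomycin were compared with livers of rats given the vehicle, corn oil, across all genes counted. The animals were adult wild-type male rats of the outbred Crl:CD(SD) stock, dosed by oral gavage once daily for 7 days, from postnatal day 56 to 62. The vancomycin group received 8 mg vancomycin per kg body weight and day, and the vehicle group received corn oil alone. 2 further liver groups were used beside them: rats given 8 mg vancomycin together with 3 mg PFOS (perfluorooctane sulfonate, a persistent fluorinated surfactant) per kg, and rats given 3 mg PFOS per kg alone. RNA was measured by BRB-seq, a 3' bulk RNA sequencing method in which each sample receives a barcode during reverse transcription and is then pooled with the others. The comparison used the libraries labelled as liver with vancomycin or with vehicle that held at least 100000 counts, which were 19 of the 192 libraries of the series: 10 of 12 with vancomycin and 9 of 12 with vehicle. The labels do not say that the libraries came from separate animals, so p-values measure the spread between these samples.

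Vancomycin is a glycopeptide antibiotic that blocks cell wall synthesis in Gram-positive bacteria. Given by mouth it is poorly absorbed and acts mainly in the gut, where many of the bacteria that deconjugate and dehydroxylate bile acids are Gram-positive. The liver makes primary bile acids from cholesterol and takes up the bile acids, propionate and bacterial wall products that arrive from the gut through the portal vein. Genes of these pathways, of fat and drug metabolism, of the acute phase response and of the cell types of the liver were therefore followed beside the genes with the smallest p-values.

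Total counts ranged from 246445 to 979737 in the vancomycin libraries (median 545512.5) and from 106742 to 1198377 in the vehicle libraries (median 283086). The means of the log2 totals differed by 0.55, less than the spread between libraries (two-sided exact permutation test, p = 0.189). Left out for depth were 2 vancomycin libraries, with 1493 and 5009 counts, and 3 vehicle libraries with 1473 to 21660 counts. Vancomycin and vehicle samples lay in different rows of the plate, and effects of row and of vancomycin cannot be told apart. The usual 5 G or C bases were present in the 6-base well barcode of all 10 vancomycin libraries, whereas 5 of the 9 vehicle libraries had barcodes with other GC content. No pair of libraries of a group agreed within counting noise (lowest chi-square per degree of freedom 3.17 among vancomycin and 2.76 among vehicle libraries), so none was counted as a repeat.

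Vehicle replicates 1 and 2, the shallowest libraries of their group, stood apart from the rest before any gene was tested. Both also had barcodes with 3 G or C bases, as did vehicle replicates 3 and 4. Thyroglobulin (Tg) is a thyroid transcript, and thyroid samples were on the same plate. It made up 0.0760% to 0.114% of counts in the vancomycin libraries, against 0.216% and 0.289% in vehicle replicates 1 and 2 and 0.0798% to 0.0933% in the other 7 vehicle libraries. Thyroglobulin was 5.33% of counts in the thyroid libraries. Growth hormone (Gh1) is a pituitary transcript, and pituitary libraries were counted apart from those of liver and thyroid. It made up 0.00602% to 0.0129% of counts in the vancomycin libraries and 0.00425% to 0.0141% in the other 7 vehicle libraries. Vehicle replicates 1 and 2 had 0.0354% and 0.0468%. Their median Spearman correlation with the rest of their group was 0.788 and 0.756, compared with 0.874 to 0.916 among the vancomycin libraries and 0.843 to 0.891 among the other vehicle libraries. A Tg share over 0.15% was also found in 1 combination library and 2 PFOS libraries. Combination replicate 45 and PFOS replicate 35 of these had 0.0363% and 0.0371% Gh1, but PFOS replicate 27 had 0.00456%. Combination replicate 42 had 0.0259% Gh1 with 0.114% Tg. Results are therefore given for all kept libraries, with the values of named genes without the 5 libraries over 0.15% Tg where that changed them most.

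**Figure D1:**
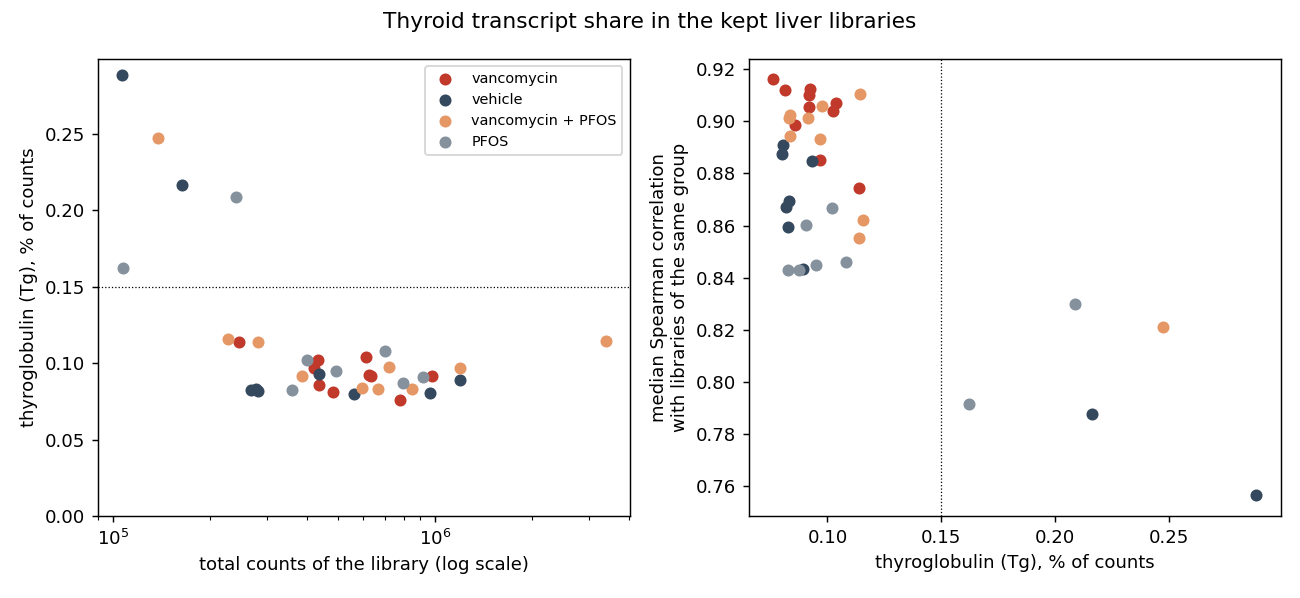
Thyroglobulin share of each kept liver library (% of counts) against its total counts on a log scale (left), and the median Spearman correlation of the library with its own group against the same share (right); each point is 1 library and the dotted line marks 0.15%. The 10 vancomycin libraries sit between 0.0760% and 0.114%, while vehicle replicates 1 and 2, at 0.216% and 0.289%, lie above the line and have the lowest correlations, 0.788 and 0.756.

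Vancomycin and vehicle livers did not differ in any single gene past the adjusted threshold. Of 3250 genes that passed the filter on low counts, 0 had an adjusted p under 0.05 (0% of those tested; edgeR quasi-likelihood test with Benjamini-Hochberg adjustment), and 98 had an unadjusted p under 0.05 (3.02%). If no gene differed, a share of about 0.05 would be expected under that p, and 3.02% was lower. Of the 98, 30 were higher (0.923% of genes tested) and 68 lower (2.09%) with vancomycin. DESeq2 and limma voom also called 0 genes, with 111 and 114 at an unadjusted p under 0.05. Without the 5 libraries of high Tg share, 0 of 3663 genes were called and 87 had an unadjusted p under 0.05 (37 higher, 50 lower), of which 37 genes were shared with the 98. Leaving out vehicle replicate 1 alone or vehicle replicate 2 alone lowered the 98 to 64 each.

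The same 4-group model called 27 of the 3250 genes tested between PFOS and vehicle livers (14 higher, 13 lower). It called 30 of the 3250 (0.923%) between combination and vancomycin livers (27 higher, 3 lower). These counts give the scale of single-gene differences it called in these libraries. The precision of the vancomycin comparison was a median standard error (SE) of 0.226 on the log2 scale, which gave a median half-width of 0.455 for the 95% confidence interval. The whole interval lay between -1 and 1, within a 2-fold difference either way, for 2926 genes (90.0%), and between -0.5 and 0.5 for 1098 genes (33.8%). Precision was lowest for scarce genes: 84.1% of genes under 50 CPM in vehicle livers had an interval within a 2-fold difference. The share was 97.8% from 100 to 500 CPM and 97.4% over 500 CPM. CPM, counts adjusted for library size, used edgeR's trimmed mean factors. The median log2 fold change over all genes was -0.01. Fold changes past 2-fold were estimated for 7 genes, LOC257642, Serinc2, LOC310926, Abi2 and Pom121 (lower with vancomycin, -1.57 to -1.09) and LOC681544 and Ubd (higher, 1.17 and 1.10). Apart from LOC257642, the intervals of these genes included 0, and without the libraries of high Tg share LOC310926 was at 0.12, Pom121 at -0.62 and Abi2 at -0.53.

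**Figure D2:**
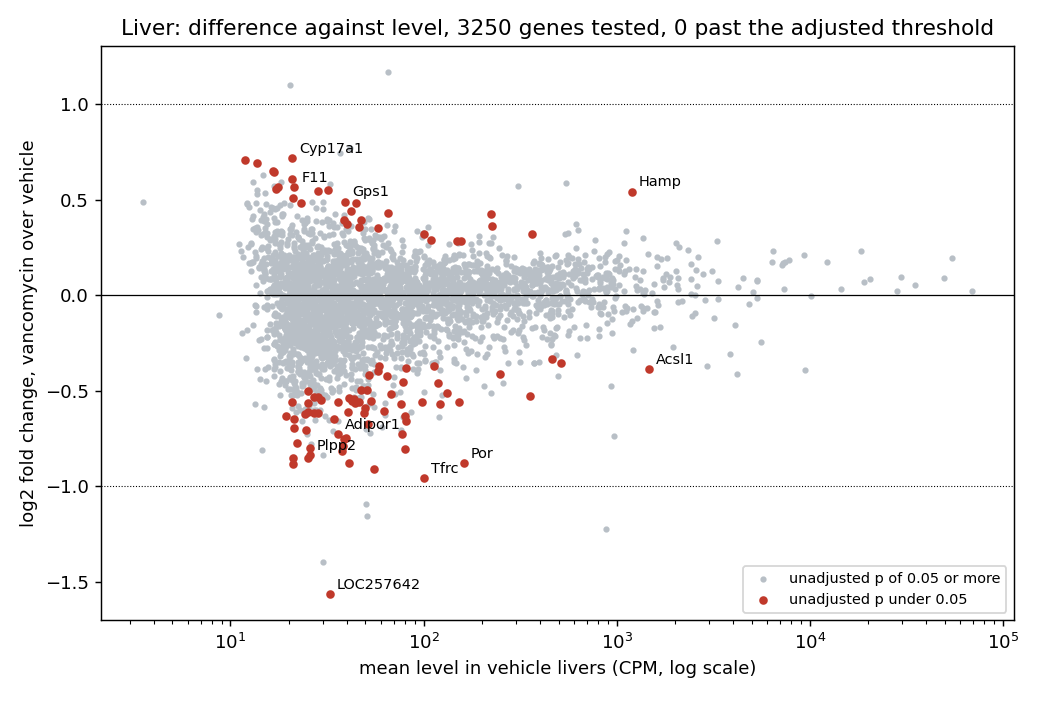
Log2 fold change of vancomycin over vehicle against the mean level in vehicle livers (CPM, log scale) for the 3250 genes tested; red points are the 98 genes with an unadjusted p under 0.05 and dotted lines mark 2-fold differences. Scatter is wider under 100 CPM than over it, Hamp at 0.54 is a red point among abundant genes, and 7 points lie past a dotted line.

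Bile acid synthesis genes included none past the adjusted threshold. Cyp7a1, the rate-limiting enzyme of the classical pathway, had 44.2 to 338 CPM in vancomycin livers (median 135) and 101 to 214 CPM in vehicle livers (median 129). The vancomycin range enclosed the whole vehicle range, and the log2 fold change was -0.01 ± 0.35 (SE), with a 95% interval from -0.72 to 0.69. Cyp8b1, the 12-alpha-hydroxylase that makes cholic acid, had 144 to 480 CPM (median 220) with vancomycin and 88.1 to 496 CPM (median 269) with vehicle, a log2 fold change of -0.01 ± 0.30. Cyp27a1, which opens the alternative pathway, was at -0.17 ± 0.20 and at -0.002 ± 0.194 without the libraries of high Tg share, where Cyp8b1 was at -0.20 ± 0.30. Nr0b2 (SHP), the repressor induced by the bile acid receptor, was at 0.29 ± 0.35, and the receptor itself, Nr1h4 (FXR), at -0.34 ± 0.24. Of 17 tested genes of the list, 7 were higher and 10 lower with a median of -0.01, and 1 had an unadjusted p under 0.05. That gene was Amacr, the racemase of the side-chain shortening step, with 55.96 to 178 CPM (median 88.7) with vancomycin against 69.999 to 167 CPM (median 132) with vehicle, a log2 fold change of -0.51 ± 0.21 (edgeR adjusted p = 0.9998). Slc27a5, the ligase that conjugates bile acids to coenzyme A, had 390 to 907 CPM with vancomycin and 386 to 657 CPM with vehicle, at 0.32 ± 0.16.

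Bile acid carriers included none past the threshold either. The sodium-dependent uptake carrier Slc10a1 (NTCP) had 413 to 874 CPM in vancomycin livers (median 525) and 239 to 713 CPM in vehicle livers (median 554). Its log2 fold change was 0.20 ± 0.20. The export pump Abcb11 was at -0.18 ± 0.20, the uptake carriers Slco1a1 and Slco1b2 at -0.21 ± 0.19 and -0.27 ± 0.19, and the canalicular exporter Abcc2 at -0.24 ± 0.18. Abcg5, a subunit of the sterol exporter, had the highest value of the 10 tested, 0.45 ± 0.30. No member had an unadjusted p under 0.05, 7 were lower, and the list median was -0.16, or -0.06 without the libraries of high Tg share. Slc10a1 was then at 0.05 ± 0.18 and Abcb11 at -0.05 ± 0.18.

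Cholesterol and fatty acid synthesis genes did not pass the test in either direction. Among 20 tested genes of cholesterol synthesis and uptake, 8 were higher and 12 lower with a median of -0.05, and 0 had an unadjusted p under 0.05. The epoxidase Sqle was at 0.00 ± 0.24, and the transcription factor Srebf2 at -0.48 ± 0.29, or -0.21 ± 0.25 without the libraries of high Tg share. Among 11 genes of fatty acid synthesis and triglyceride assembly the median was -0.17 with 0 under 0.05 (4 higher, 7 lower). The direction of the list turned without the libraries of high Tg share, with 9 of 12 tested higher, a median of 0.10 and again 0 under 0.05. Fasn, the fatty acid synthase, had 30.9 to 83.5 CPM (median 43.3) with vancomycin and 20.1 to 205 CPM (median 41.8) with vehicle. Its log2 fold change was -0.27 ± 0.39 with all kept libraries and 0.25 ± 0.34 without those of high Tg share. It was also above 0 with barcode GC as a covariate (0.50) and with libraries of at least 500000 counts (0.13). Srebf1, which drives this programme, was at -0.53 ± 0.48 with all kept libraries and 0.17 ± 0.40 without those of high Tg share. The desaturase Scd was at 0.12 ± 0.27.

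Fatty acid oxidation genes centred on 0. The 20 mitochondrial genes split into 10 higher and 10 lower with a median of 0.00. Acsl1, which activates long-chain fatty acids, was the member with an unadjusted p under 0.05, with 1005 to 1443 CPM (median 1088) in vancomycin livers and 974.6 to 2540 CPM (median 1224) in vehicle livers, at -0.39 ± 0.18. It was at -0.07 ± 0.13 without the libraries of high Tg share, where none of the 20 had an unadjusted p under 0.05. The 17 genes of peroxisomal oxidation and omega-hydroxylation had a median of -0.02, and 1 had an unadjusted p under 0.05. That was Abcd3, the peroxisomal membrane transporter, with 177 to 310 CPM (median 272) with vancomycin against 167 to 737 CPM (median 308) with vehicle, at -0.53 ± 0.21. Cyp4a1 and Cyp4a2, omega-hydroxylases under the control of PPAR-alpha in rat liver, were at 0.06 ± 0.20 and 0.33 ± 0.33. Cyp4a2 was at 0.19 ± 0.37 without the libraries of high Tg share. Fabp1, the liver fatty acid binding protein, was among the most abundant transcripts, at 25559 to 34422 CPM with vancomycin and 17823 to 36464 CPM with vehicle, a log2 fold change of 0.02 ± 0.14. Fgf21, a hormone of the fasted liver, had 21 counts over all vancomycin libraries and 19 over all vehicle libraries and was not tested.

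Drug metabolism genes included none past the threshold. Of 21 tested genes of the CAR and PXR list, 7 were higher and 14 lower with a median of -0.14, and 1 had an unadjusted p under 0.05. Cyp3a2 had 1983 to 3445 CPM in vancomycin livers (median 2706) and 934 to 3559 CPM in vehicle livers (median 2130), at 0.24 ± 0.17, or 0.11 ± 0.15 without the libraries of high Tg share. Cyp2b1, scarce without PFOS, had 4.91 to 58.3 CPM with vancomycin and 0 to 48.1 CPM with vehicle, at -0.14 ± 0.50, and Cyp2b2 was at -0.35 ± 0.23. Por, the reductase that supplies electrons to these enzymes, had 33.9 to 117 CPM (median 78.1) with vancomycin and 24.2 to 564 CPM (median 118) with vehicle, at -0.88 ± 0.36 (edgeR adjusted p = 0.9998). It was at -0.35 ± 0.27 without the libraries of high Tg share, where none of the list had an unadjusted p under 0.05. Cyp2c11, the main male-specific enzyme of rat liver, was at 0.13 ± 0.16 and the constitutive Cyp1a2 at 0.02 ± 0.15. Gstp1, a glutathione transferase, was the member of the 18 tested glutathione and NRF2 genes with an unadjusted p under 0.05, at -0.38 ± 0.17, and at -0.20 ± 0.15 and over that p without the libraries of high Tg share. Of 13 tested genes of propionate, cobalamin and folate handling, Shmt1, the cytosolic serine hydroxymethyltransferase, was at 0.55 ± 0.23 with an unadjusted p under 0.05. The propionyl-CoA carboxylase subunit Pccb was at 0.32 ± 0.16, or 0.20 ± 0.15 without the libraries of high Tg share.

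Hepcidin (Hamp), the liver hormone that blocks iron export into blood, had the clearest value among abundant genes without passing the adjusted threshold. It had 1023 to 2807 CPM in vancomycin livers (median 1565) and 609 to 1727 CPM in vehicle livers (median 1194). The groups overlapped, with 9 of 10 vancomycin libraries above the vehicle mean. The log2 fold change was 0.54 ± 0.21 (95% interval 0.12 to 0.97; edgeR adjusted p = 0.9998), and 0.68 ± 0.20 without the libraries of high Tg share. Tfrc, the transferrin receptor that takes iron into cells, had 25.5 to 80.8 CPM (median 48.9) with vancomycin and 16.1 to 202 CPM (median 89.2) with vehicle, at -0.96 ± 0.34 (95% interval -1.64 to -0.28; edgeR adjusted p = 0.9998). All 10 vancomycin libraries were below the vehicle mean, and the vehicle range enclosed theirs. These were the 2 members of the 19 tested iron, haem and metal genes with an unadjusted p under 0.05, and the list median was 0.00.

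Acute phase genes had a median of 0.13, with 15 of 22 tested members higher and Hamp as the 1 gene under an unadjusted p of 0.05. Serpina3n, an induced serine protease inhibitor, had 1241 to 2511 CPM with vancomycin and 1209 to 1713 CPM with vehicle, at 0.30 ± 0.22, and Orm1, the alpha-1-acid glycoprotein, was at -0.22 ± 0.14. Plasma protein and coagulation genes were higher in 24 of 29 tested members, each by little: the list median was 0.08, and 0 had an unadjusted p under 0.05. Prothrombin (F2) had 2168 to 2800 CPM with vancomycin against 1193 to 2597 CPM with vehicle, at 0.27 ± 0.15, and fibrinogen gamma (Fgg) 3174 to 4870 CPM with vancomycin against 1656 to 4362 CPM with vehicle, at 0.29 ± 0.17. Without the libraries of high Tg share F2 was at 0.12 ± 0.13 and Fgg at 0.11 ± 0.14. Apoa1, the chief apolipoprotein of high-density lipoprotein, had 7830 to 15614 CPM in vancomycin livers (median 10590) and 7175 to 11577 CPM in vehicle livers (median 8825), at 0.21 ± 0.15. Apoa4 was at -0.37 ± 0.28, or -0.21 ± 0.32 without the libraries of high Tg share, and Apoe at -0.39 ± 0.28 with all kept libraries and 0.02 ± 0.29 without those of high Tg share. The growth hormone target Igf1 had nearly equal levels, 2179 to 2980 CPM (median 2505) with vancomycin and 2125 to 3150 CPM (median 2391) with vehicle, at -0.00 ± 0.13. Of the thyroid hormone genes, the deiodinase Dio1 was at -0.07 ± 0.13, the carrier Ttr at 0.09 ± 0.16 and the responsive gene Thrsp at 0.08 ± 0.31.

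All 75 tested cytosolic ribosomal protein genes, all 32 oxidative phosphorylation genes and all 30 proteasome genes had a 95% interval within a 2-fold difference. Their medians were -0.01, 0.04 and 0.04, and 0 had an unadjusted p under 0.05. Genes of endoplasmic reticulum folding and the unfolded protein response were lower in 15 of 19 tested members with a median of -0.08, again with 0 under 0.05. That direction turned without the libraries of high Tg share, where 14 of the 19 were higher with a median of 0.05. Of the 10 tested glucocorticoid and fasting genes, Cyp17a1, a steroid hydroxylase, had 12.7 to 55.96 CPM with vancomycin against 0 to 49.4 CPM with vehicle, at 0.72 ± 0.30, and the glucocorticoid receptor Nr3c1 was at -0.59 ± 0.26, both with an unadjusted p under 0.05. Nr3c1 was at -0.40 ± 0.25 and over that p without the libraries of high Tg share. Over the 34 lists with at least 5 tested members, medians ran from -0.28 to 0.16, and 32 were between -0.2 and 0.2. Of the 561 listed genes that were tested, 14 had an unadjusted p under 0.05, against the 3.02% of all genes given above.

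**Figure D3:**
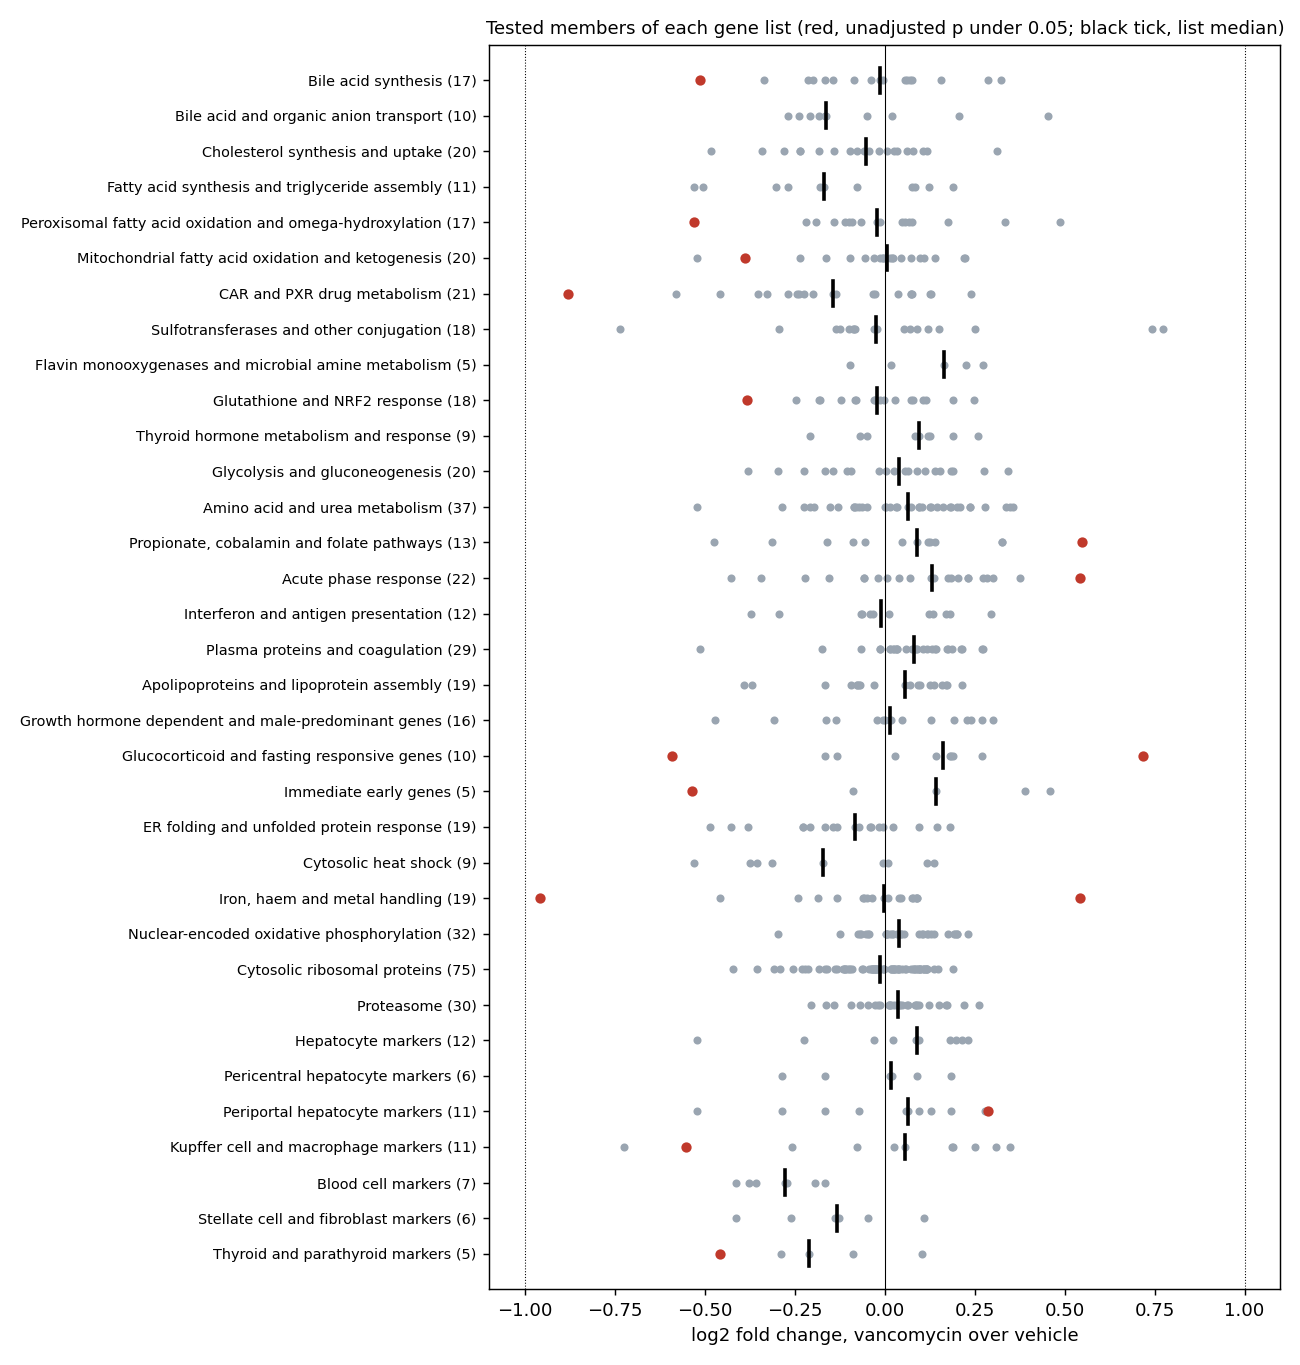
Log2 fold change of vancomycin over vehicle for every tested member (points) of the 34 gene lists with at least 5 tested members, with the number tested in brackets, the list median as a black tick and members with an unadjusted p under 0.05 in red. List medians lie between -0.28 (blood cell markers) and 0.16, and no member is past a 2-fold difference (dotted lines).

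The 20 genes with the smallest unadjusted p are given as values that did not pass. Adipor1, a receptor of the fat-derived hormone adiponectin, had the smallest (p = 0.00135, edgeR adjusted p = 0.9998). It had 12.3 to 28.1 CPM in vancomycin livers (median 18.7) and 24.2 to 52.9 CPM in vehicle livers (median 36.8), a log2 fold change of -0.73 ± 0.21. All 10 vancomycin libraries were below the vehicle mean and the ranges overlapped by a few CPM. Gps1, a subunit of the COP9 signalosome, had 37.7 to 76.4 CPM (median 59.1) with vancomycin against 22.7 to 55.3 CPM (median 42.6) with vehicle, at 0.49 ± 0.17. Coagulation factor XI (F11) had 19.3 to 44.98 CPM (median 29.6) with vancomycin against 11.4 to 32.2 CPM (median 22.1) with vehicle, at 0.57 ± 0.20. Chpt1, which makes phosphatidylcholine, had 13.4 to 42.4 CPM (median 23.6) with vancomycin against 8.06 to 28.4 CPM (median 17.6) with vehicle, at 0.65 ± 0.26. In each of these 3 genes 9 of 10 vancomycin libraries were above the vehicle mean. Cfap20, known as a cilium protein, was at 0.55 ± 0.20 with all 10 above it. Such counts follow in part from choosing genes by p in these same libraries, as they do for Hamp and Tfrc above.

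Most of the 20 were lower with vancomycin, and many of them at under 100 CPM. Coa5, an assembly factor of cytochrome c oxidase, had 25.5 to 68.9 CPM (median 47.7) with vancomycin and 40.9 to 123 CPM (median 71.3) with vehicle, at -0.57 ± 0.20. Plpp2, a lipid phosphate phosphatase, had 2.41 to 23.8 CPM (median 12.5) with vancomycin against 10.03 to 61.7 CPM (median 17.8) with vehicle, at -0.84 ± 0.34. LOC257642, which the files do not describe further, had 0 to 31.05 CPM (median 8.21) with vancomycin against 1.78 to 89.2 CPM (median 22.8) with vehicle, at -1.57 ± 0.62. Further members were Ebpl (-0.63 ± 0.23), Pdap1 (-0.79 ± 0.30), the lysosomal Tmem192 (-0.65 ± 0.25), the ubiquitin ligase adaptor Klhl25 (-0.85 ± 0.33), the phosphatase Ppm1b (-0.75 ± 0.30), the lipid droplet protein Fitm2 (-0.56 ± 0.22) and the kinase Stk11 (LKB1, -0.75 ± 0.30, or -0.49 ± 0.28 without the libraries of high Tg share).

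Some of these values moved when the libraries of high Tg share were left out. Cystatin C (Cst3) had 61.2 to 132 CPM with vancomycin and 67.4 to 352 CPM with vehicle, and its log2 fold change was -0.56 ± 0.21 with all kept libraries and -0.21 ± 0.17 without them. The kinase Map2k3 had 21.2 to 49.6 CPM with vancomycin against 16.1 to 291 CPM with vehicle. It was at -0.73 ± 0.29 with all kept libraries and -0.19 ± 0.20 without those of high Tg share. Of the 20 genes, 14 still had an unadjusted p under 0.05 without the 5 libraries, among them Adipor1 (-0.62 ± 0.20), Tfrc (-0.93 ± 0.37) and Hamp. The part of thyroid and pituitary transcripts in the differences was not tested.

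**Figure D4:**
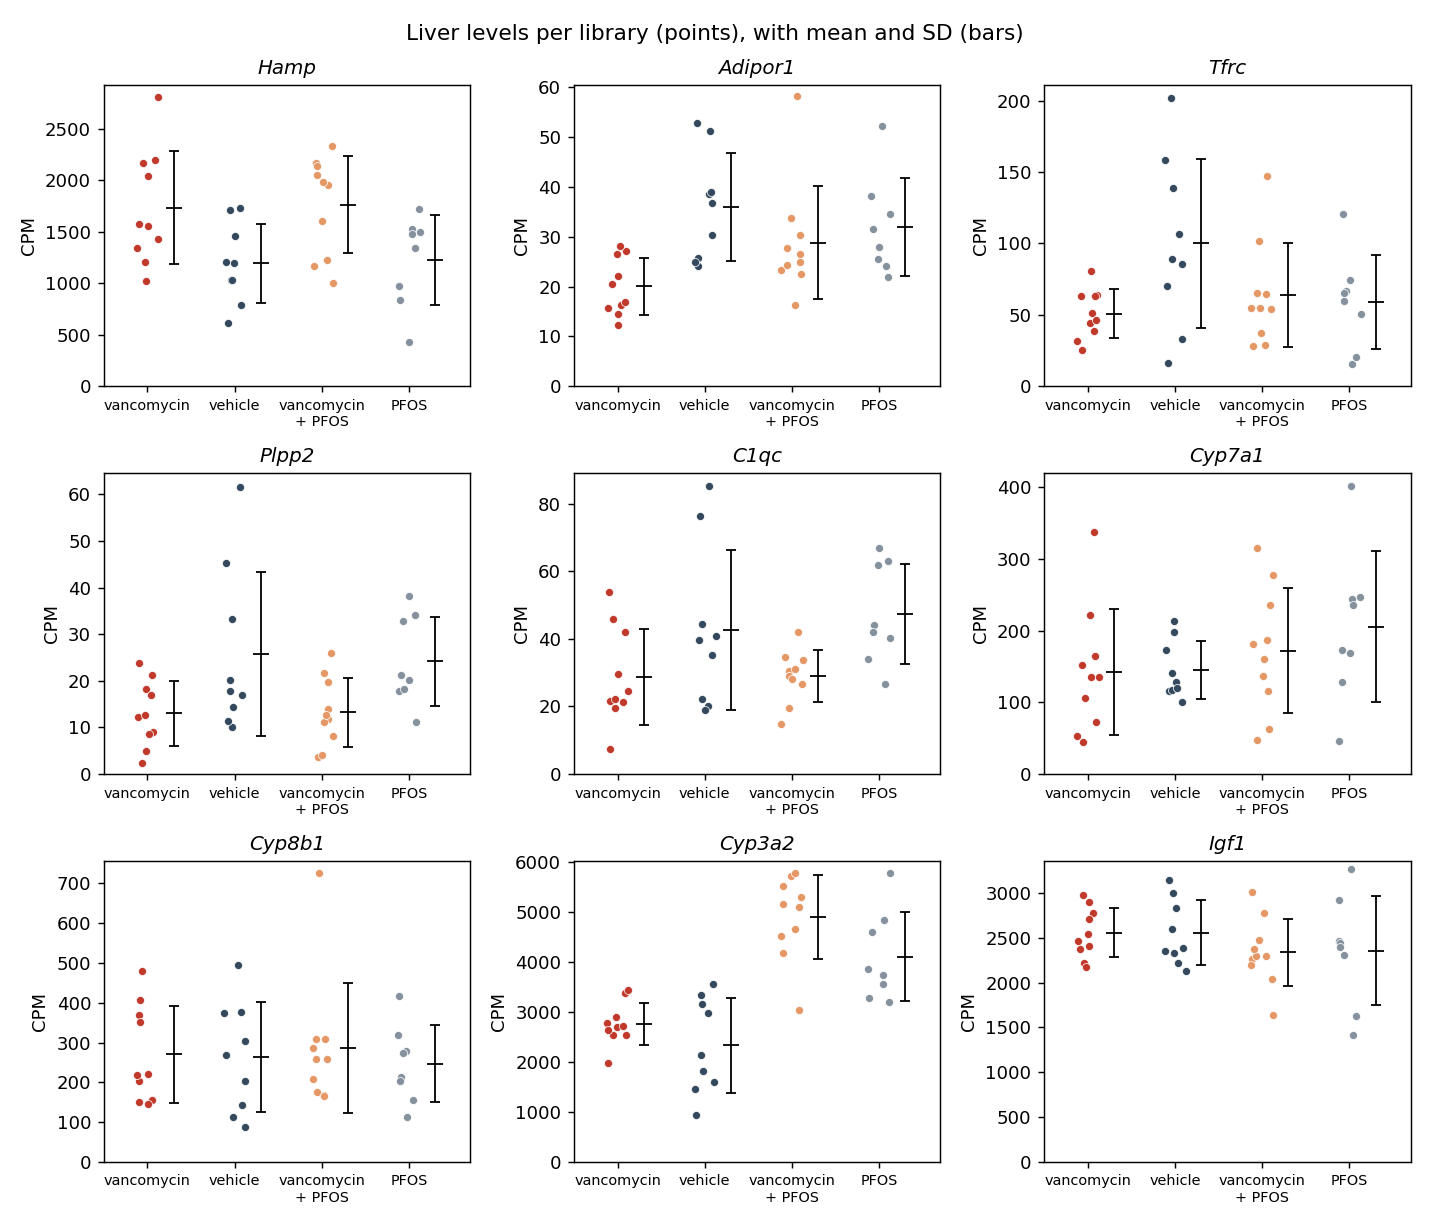
Levels of 9 genes (CPM, linear axis from 0) in each liver library (points), with the mean and SD (bars), in vancomycin (n = 10), vehicle (n = 9), vancomycin with PFOS (n = 10) and PFOS (n = 8) livers. The ranges of Cyp7a1, Cyp8b1 and Igf1 overlap widely between vancomycin and vehicle, Adipor1 reaches 28.1 CPM with vancomycin and starts at 24.2 CPM with vehicle, and Hamp has its higher mean with vancomycin in both pairs of groups.

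Vancomycin was also given together with PFOS, and combination livers could be set against PFOS livers, which share no library with the comparison above. Of the same 3250 genes 0 had an adjusted p under 0.05 there too, and 114 had an unadjusted p under 0.05 (3.51%; 52 higher, 62 lower; edgeR quasi-likelihood test). The smallest adjusted p was 0.804. The interaction, which asks whether the vancomycin difference itself differed between rats with and without PFOS, gave 0 genes and 58 at an unadjusted p under 0.05. Of the 98 genes with an unadjusted p under 0.05 against vehicle, 58 had the same sign in combination against PFOS livers (59.2%), compared with 54.4% of all genes tested. Of the 114 genes under that p in combination against PFOS livers, 85 had the same sign against vehicle (74.6%). 4 genes had an unadjusted p under 0.05 in both, and all 4 had the same sign in both. They were 4.08% of the 98, against 3.51% of all genes under that p in combination against PFOS livers. Of the 114 they were 3.51%, against 3.02% of all genes under that p against vehicle. The overlap was thus near the share over all genes.

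The 4 genes were Hamp, Plpp2, C1qc and Gda. Hamp had 1005 to 2330 CPM in combination livers (median 1968) and 426 to 1718 CPM in PFOS livers (median 1410), a log2 fold change of 0.52 ± 0.22 beside the 0.54 against vehicle. Plpp2 had 3.54 to 25.9 CPM (median 12.1) in combination livers and 11.2 to 38.2 CPM (median 20.7) in PFOS livers, at -1.01 ± 0.35. C1qc, a chain of the complement component C1q that macrophages make, had 14.8 to 42.1 CPM (median 29.8) in combination and 26.7 to 66.9 CPM (median 43.05) in PFOS livers, at -0.77 ± 0.27. Between vancomycin and vehicle livers it had 7.29 to 53.9 CPM (median 23.4) with vancomycin against 19.01 to 85.3 CPM (median 39.8) with vehicle, at -0.55 ± 0.27. The guanine deaminase Gda was at -0.62 ± 0.29 against vehicle and -0.68 ± 0.31 in combination against PFOS. Averaged over both comparisons, Plpp2 was at -0.92 ± 0.24, C1qc at -0.66 ± 0.19 and Hamp at 0.53 ± 0.15, each with an edgeR adjusted p of 0.838. That average was added after the data were seen, and it called 0 genes. In PFOS-treated rats Adipor1 was at -0.25 ± 0.21, Tfrc at 0.05 ± 0.35, Cyp7a1 at -0.28 ± 0.35, Slc27a5 at 0.38 ± 0.17 and Serpina3n at 0.72 ± 0.23.

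**Figure D5:**
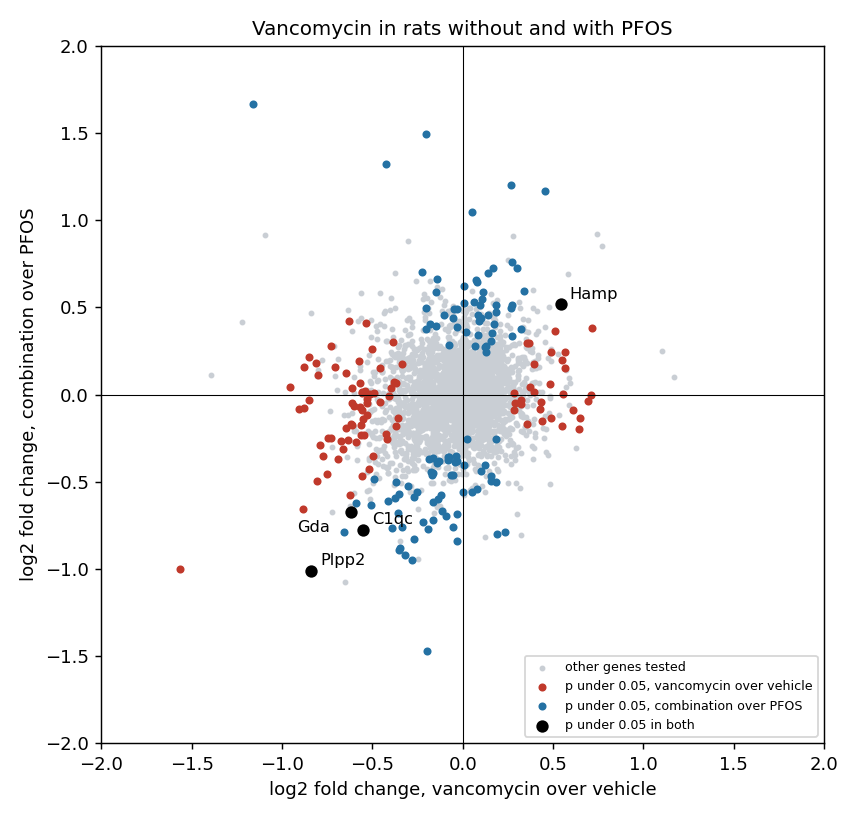
Log2 fold change of combination over PFOS livers against log2 fold change of vancomycin over vehicle livers for the 3250 genes tested; colours mark an unadjusted p under 0.05 in 1 comparison, and black marks it in both. The 4 black points, Hamp in the upper right and Plpp2, C1qc and Gda in the lower left, have the same sign in both.

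Markers of cell types placed the libraries as liver and differed little between groups. Hepatocyte markers summed to 17.7% to 20.2% of counts in the vancomycin libraries and 16.7% to 19.9% in the vehicle libraries, and all 12 were tested, 9 of them higher with a median of 0.09. Albumin (Alb) alone took 6.67% ± 0.54 of counts with vancomycin (SD, n = 10) and 6.77% ± 0.96 with vehicle (n = 9). Cps1, a hepatocyte marker of the urea cycle, was low for its place in liver, at 4.24 to 24.6 CPM with vancomycin and 3.68 to 31.98 CPM with vehicle. A ribosomal protein gene, Rps9, was also nearly uncounted, with 1 count over all vancomycin libraries and 0 over all vehicle libraries. Low counts of a single gene may thus not reflect its level in the tissue, which was not tested. In bulk tissue, fewer cells of a type and less RNA per cell cannot be told apart. Kupffer cell and macrophage markers summed to 0.0657% to 0.103% with vancomycin and 0.0525% to 0.0986% with vehicle. Of 11 tested markers 7 were higher and 4 lower with a median of 0.06, and C1qc was the 1 with an unadjusted p under 0.05. Stellate cell and fibroblast markers summed to 0.0917% to 0.118% with vancomycin and 0.0777% to 0.145% with vehicle. Acta2 had 0 counts in both groups, which, as with Rps9, cannot be read as absence of the transcript. Lymphocyte markers reached at most 0.0167% with vancomycin and 0.0118% with vehicle, and of the neutrophil markers Mpo, Ltf, Camp and Cxcr2 had no count in either group.

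Blood cell markers summed to 0.365% to 0.751% of counts in the vancomycin libraries (median 0.524%) and 0.294% to 1.67% in the vehicle libraries (median 0.625%), with vehicle replicates 1 and 2 the highest at 1.06% and 1.67%. All 7 tested markers were lower with vancomycin, with a median of -0.28 and 0 at an unadjusted p under 0.05. Without the libraries of high Tg share 2 were higher and 5 lower, with a median of -0.08. In combination against PFOS livers the same 7 had a median of -0.72, with 6 at an unadjusted p under 0.05, where 3.51% of all genes were. The 7 mark the same cells and are not independent of each other. The sums of blood cell markers were 0.265% to 0.644% with the combination against 0.532% to 1.02% with PFOS. Without the libraries of high Tg share 4 of the 7 had an unadjusted p under 0.05 in that comparison, with a median of -0.71. Thyroid and parathyroid markers summed to 0.145% to 0.207% in the vancomycin libraries and 0.145% to 0.509% in the vehicle libraries. 1 of the 5 tested had an unadjusted p under 0.05, and 0 without the libraries of high Tg share. The part of blood and of other tissues' transcripts in the differences was not tested.

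Some genes varied far more among libraries of 1 group than between the group medians. The glucuronosyltransferase Ugt2b had 18.7 to 2214 CPM in vancomycin livers (median 887) and 17.8 to 2216 CPM in vehicle livers (median 1233), with a log2 fold change of -0.08 ± 0.96. Hsd17b2, which oxidises estradiol, had 135 to 2045 CPM with vancomycin against 179 to 1179 CPM with vehicle, Retsat, the retinol saturase, 80.8 to 715 CPM with vancomycin against 44.05 to 650 CPM with vehicle, and the metallothionein Mt1 172 to 2106 CPM with vancomycin against 136 to 1762 CPM with vehicle. In each of these genes the 2 ranges overlapped widely, and no fold change had a 95% interval that left out 0. The genes were picked for their wide spread within groups, so this follows largely from that choice.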

How the data were processed

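BRB-seq was run on polyadenylated RNA from 4 tissues, with 192 libraries in 2 plates. The authors deposited raw counts, whole numbers for 17483 genes in each library, with no apparent normalization. Per the submitters' processing notes, BWA 0.7.4.4 and the build rn6 were used in a role not stated; other steps are not given in the sources used here. Strand was not stated, so near-identical or antisense genes may share counts. Gene names were matched to a RefSeq table of another assembly for checking names only (15578 directly, 1556 by synonym, 349 not), so no coordinates are given. A second deposited count table holds other tissues and was not used here.

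Columns were matched to samples by name. Libraries under 100000 counts were left out. The 4 liver groups were fitted in 1 model with R 4.3.3 and edgeR 4.0.16: filterByExpr at a minimum count of 10, TMM scaling, robust quasi-likelihood F test, Benjamini-Hochberg adjustment over 3250 genes at a threshold of 0.05. The SE was the size of the log2 fold change divided by the square root of F. The fit was tested on simulated data. Alternatives were DESeq2 1.42.0, its size factors, no filter, limma 3.58.1 voom, 2 groups only, other depth minimums, well column, log2 total and barcode GC as covariates, thinned counts and single libraries left out. Pooling over PFOS and leaving out libraries over 0.15% Tg were added after the data were seen. Totals were compared by exact permutation in Python 3.11.15. The libraries compared, the gene lists (43) and the tests were chosen with earlier results of these data known. Named genes were the called genes (there were 0), the 20 of smallest unadjusted p, genes set by pathway, and up to 3 members of each list by p; Gda, Serinc2, LOC310926, Abi2, Pom121, LOC681544, Ubd and the genes of wide within-group range were chosen after their values were seen. Counts without stated duplicate removal may not be independent molecules, so precision rests on the spread between libraries. Some genes are not reported here.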

Additional observations from a re-analysis of the deposited data

Results flagged for a closer look

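A library far from the rest of its group was found for 12 of 156 sets of values, each set being the levels of 1 gene named above, or the total counts, in 1 group; chance alone marks about 1 in 20 groups.

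In the vancomycin livers the low library had 61.2 CPM of Cst3 (replicate 24, next lowest 89.5 CPM), 8.49 CPM of Ppm1b (replicate 18, next 16.3 CPM), 33.9 CPM of Por (replicate 21, next 61.1 CPM) and 22.1 CPM of Shmt1 (replicate 13, next 36.1 CPM). Replicate 23 was the low library for Nr3c1, at 9.72 CPM (next 24.5 CPM), and for C1qc, at 7.29 CPM (next 19.6 CPM).

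In the vehicle livers replicate 3 was the low library for Amacr at 69.999 CPM (next 119 CPM) and for Cyp27a1 at 40.5 CPM (next 113 CPM). Vehicle replicates 1 and 2, the libraries of high Tg share, were low for Slco1a1 at 17.04 CPM (replicate 1, next 44.1 CPM) and Nr1h4 at 8.81 CPM (replicate 2, next 39.8 CPM). Vehicle replicate 8 had 144 CPM of Cyp4a2 (next 544 CPM). The highest library was vehicle replicate 7 for Ttr, at 48923 CPM (next highest 32594 CPM).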

How the results depend on the processing

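No gene passed the adjusted threshold in any of the 3 contrasts under any of the 51 alternative settings run, single libraries left out included; the lowest adjusted p was 0.555 for vancomycin against vehicle, 0.0554 for combination against PFOS and 0.932 for the interaction. No paired analysis was possible because the groups compared share no replicate numbers. Leaving out 1 library at a time gave 64 to 131 genes at an unadjusted p under 0.05 for vancomycin against vehicle (19 to 35 higher, 43 to 100 lower) and 82 to 217 for combination against PFOS, the 217 without combination replicate 42.

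The number of genes tested differed between settings, so these counts are not shares of the same set. Counts at an unadjusted p under 0.05 for vancomycin against vehicle, combination against PFOS and the interaction were 509, 558 and 522 with no filter, over 13813 genes. They were 21, 24 and 19 with counts thinned to the smallest total, over 1476 genes. With libraries of at least 500000 counts they were 150, 544 and 170, over 4255 genes. With all libraries kept, over 2661 genes, combination against PFOS and the interaction gave 72 and 38. The next settings tested 3250 genes. With voom combination against PFOS and the interaction gave 201 and 149. With barcode GC as a covariate vancomycin against vehicle gave 62 and the interaction 37. Vancomycin against vehicle gave 163 with well column as a factor and 158 when pooled over PFOS. Genes higher with vancomycin at that p numbered 198 with no filter, 5 thinned, 61 at 500000 counts, 62 with well column, 52 with voom, 56 pooled and 16 with all libraries; genes lower numbered 311 with no filter, 16 thinned and 36 with barcode GC.

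The difference of mean log2 totals was -0.28 with libraries of at least 500000 counts (n = 5 and 3; exact permutation p = 0.393) and 0.91 with all. Among 77 named genes, 26 log2 fold changes turned sign by more than 1 SE, the cause not tested, and 134 by less. With barcode GC as a covariate these were Fitm2 (0.0024), LOC310926 (0.61), Srebf1 (0.11), Abcb11 (0.036), Cyp2c11 (-0.080), Fasn (0.50) and Retsat (-0.39). With libraries of at least 500000 counts they were LOC310926 (0.74), Cyp2b2 (0.084), Cyp3a2 (-0.067), Abcc2 (0.27), Abcb11 (0.033), Cyp2c11 (-0.11), Fasn (0.13) and Ttr (-0.091). Without libraries of other barcode GC they were LOC310926 (0.53), Srebf1 (0.075) and Fasn (0.44), and without those of high Tg share LOC310926 (0.12), Apoe (0.0205), Srebf1 (0.17) and Fasn (0.25). Thinned, they were Abcb11 (0.15) and Cyp4a1 (-0.49), and pooled over PFOS Apoa1 (-0.021) and Abi2 (0.26). Of 475 list medians under these settings, 465 moved by less than the spread between libraries. Depth limits genes under 50 CPM most, where 8.12% had a 95% interval between -0.5 and 0.5.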

Other observations

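Among the genes averaged over both vancomycin comparisons, those of the smallest unadjusted p after Plpp2, C1qc and Hamp were Slit3, a guidance protein of fibroblasts and endothelium (0.81 ± 0.24), the alpha globin Hba-a2 (-0.55 ± 0.16), Adipor1 (-0.49 ± 0.15) and Serpina3n (0.51 ± 0.16). None passed the adjusted threshold (edgeR adjusted p = 0.838 for each), and these genes were chosen after their values were seen. Slit3 was at 0.46 against vehicle and 1.17 in combination against PFOS livers.

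Transferrin (Tf), the iron carrier of plasma and 1 of the 3 most abundant transcripts, made up 3.81% to 6.45% of counts in the vancomycin libraries and 2.70% to 7.18% in the vehicle libraries. The 10 most abundant genes together took 34.1% ± 0.58 of counts with vancomycin (SD, n = 10) and 32.8% ± 2.43 with vehicle (n = 9).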
